A study of Saccharomyces cerevisiae with 13 samples.

Results

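The cultures compared here are those of 2 Saccharomyces cerevisiae strains, each at the highest feed level of furfural that was measured for it: FT30-3 at 36 mM (3 arrays) and TMB3400 at 25 mM (3 arrays), which are 6 of the 13 arrays of the study. The arrays were picked by their labels, and the comparison was chosen with earlier results of these data known. FT30-3 (strain TMB3400-FT30-3 in full) arose from TMB3400, the less resistant parent, by evolutionary adaptation. Each culture was a glucose-limited, micro-aerobic chemostat with furfural in the feed, and all cultures of the study received furfural. The parent washed out at 36 mM, per the labels, so no array pairs the strains at that level. Strain and dose therefore differ together in this contrast and cannot be told apart in it. The other arrays hold TMB3400 at 15 mM (2) and FT30-3 at 15 mM (3) and 25 mM (2), and the difference between the strains at 25 mM and the difference between 36 and 25 mM in FT30-3 are given beside some values below. These add up to the main difference and share its arrays, so they are not separate evidence.

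Furfural is an aldehyde formed from pentose sugars when plant biomass is broken down, and it inhibits growth and fermentation. Yeast detoxifies it mainly by reducing it to furfuryl alcohol. The reduction uses NADPH or NADH, depending on the enzyme, and several alcohol dehydrogenases and aldehyde reductases can carry it out. The series' title concerns reduction of furfural by NADPH-dependent oxidoreductases. NADPH comes largely from the oxidative pentose phosphate pathway and from oxidation of acetaldehyde to acetate.

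Expression was read on 1-colour arrays as 1 intensity per probe set, and 5449 genes were measured. Values below are intensities after each array's median over S. cerevisiae probe sets was set to a common value, and differences are log2(intensity + 1) in FT30-3 at 36 mM minus TMB3400 at 25 mM, ± standard error, with adjusted p from limma over all probe sets. "Higher" and "lower" stand for genes that passed an adjusted p of 0.05. Array medians before centring lay between 1412 and 1663 in the 13 arrays. Probe sets for another yeast, Schizosaccharomyces pombe, should have no target in these cultures and mark the background, and their 95th percentile was 31.2 to 39.0. Replicate 1 of FT30-3 at 36 mM stood apart: across probe sets it correlated at r = 0.969 and 0.966 with replicates 2 and 3, which correlated at 0.995, against 0.985 to 0.990 among the TMB3400 arrays at 25 mM. In that replicate 216 genes lay more than 2-fold below the mean of the other two and 5 lay above, and the median deviation was -0.52 for 14 genes of endoplasmic reticulum folding and 0.40 for 54 genes of ribosome biogenesis, against 0.07 for all genes. The main counts and the values that rest on it are therefore also given without it. Of the 176 genes that passed among the 214 named by rule, 115 passed in every one of 27 alternatives that gave them a value (leaving out chromosome XVI gives none for its own genes), which include leaving out each array, and genes described as higher or lower below are among these 115 unless a remark says otherwise. These 27 leave out a test against a 1.5-fold difference, which 84 genes in all passed.

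Of the 5449 genes, 1011 (18.6%) passed, with 533 (9.78%) higher and 478 (8.77%) lower. Chromosome XVI is kept apart from here on, since its genes were shifted as a whole. Among the 5025 genes on the other chromosomes, 767 (15.3%) passed, of which 301 (5.99%) were higher and 466 (9.27%) lower in FT30-3 at 36 mM. In 1457 of these genes (29.0%) the 3 and 3 values did not overlap. The list counts below, for genes outside chromosome XVI, are to be read against these shares. Of the 767, 39.2% were higher, and that split moved with the centring: on the values as deposited, 395 were higher and 317 lower (55.5% higher). Centring on the genes outside chromosome XVI gave 359 and 364. Without FT30-3 replicate 1, 407 (8.1%) were higher and 726 (14.4%) lower, whereas 215 and 279 passed without its replicate 2, and 192 and 252 without TMB3400 replicate 3. Of the 1746 S. pombe probe sets, 121 (6.93%) passed in a fit of their own although they should have no target. The matched contrasts outside chromosome XVI gave 216 genes (4.3%) between the strains at 25 mM and 350 (6.97%) between 36 and 25 mM in FT30-3, and those on it 144 (34.0%) and 38 (8.96%).

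**Figure D1:**
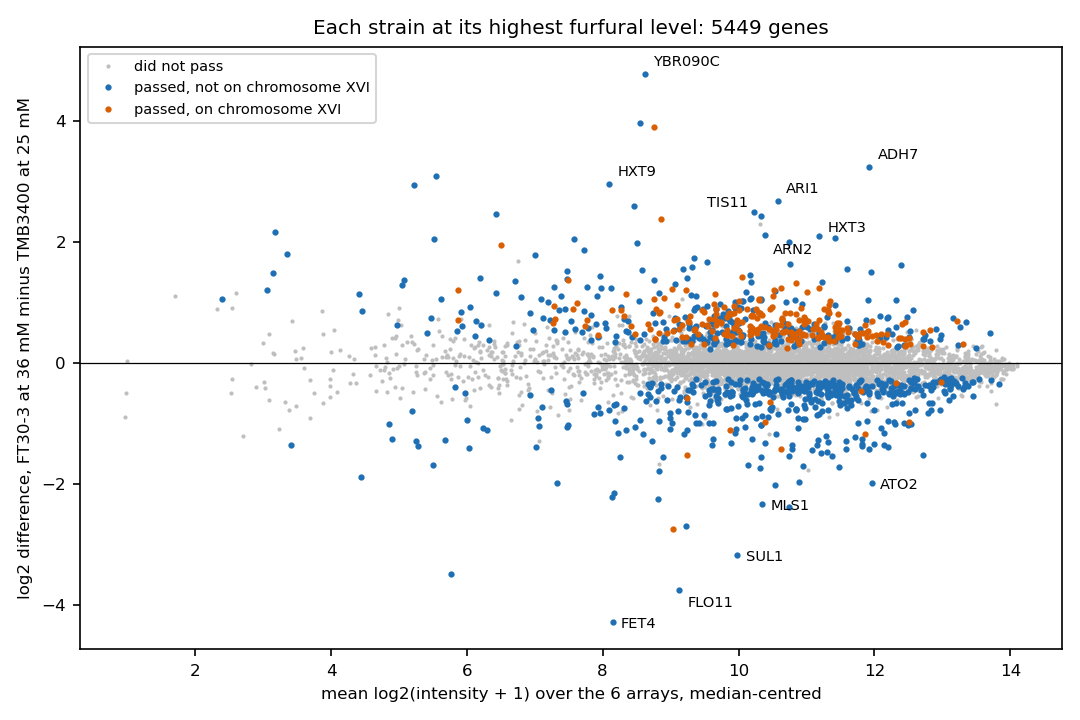
Difference of each gene against its mean level. The x axis is the mean log2(intensity + 1) over the 6 arrays and the y axis the log2 difference of FT30-3 at 36 mM minus TMB3400 at 25 mM. Blue points are the 767 genes outside chromosome XVI that passed, and orange points the 244 on it, most of which lie above 0.

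The aldehyde reductase genes split: a few were far higher in FT30-3 at 36 mM, and most did not pass. Of 21 aldehyde and ketone reductase genes outside chromosome XVI, 6 were higher and 3 lower (4 to 7 and 1 to 4 when any 1 of the 6 arrays was left out), with a median of 0.03 against -0.05 for all genes outside that chromosome. The 2 highest, ADH7 and ARI1, were among the 12 highest of all these genes. ADH7, an NADPH-dependent alcohol dehydrogenase, read 13439, 11578 and 10996 in replicates 1, 2 and 3 of FT30-3 at 36 mM and 3596, 568 and 994 in those of TMB3400 at 25 mM. All FT30-3 values lay above all TMB3400 values, and the TMB3400 cultures spread widely among themselves. The difference was 3.24 ± 0.52 (adjusted p = 0.00157; 3.15 without FT30-3 replicate 1). Nearly all of it was present at 25 mM, where the strains differed by 2.98 ± 0.58, while FT30-3 at 36 and 25 mM differed by 0.26 ± 0.58, which did not pass (adjusted p = 0.846).

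ARI1, an NADPH-dependent aldehyde reductase, read 5107, 3170.3 and 3586 in FT30-3 and 865, 355 and 714 in TMB3400, with no overlap. It was 2.68 ± 0.29 higher (adjusted p = 0.00015; 2.48 without replicate 1). In contrast to ADH7, the value was made up of similar steps: 1.31 ± 0.32 (adjusted p = 0.034) from parent to FT30-3 at 25 mM, and 1.37 ± 0.32 between 36 and 25 mM in FT30-3 (adjusted p = 0.0281). GRE2, a methylglyoxal reductase that uses NADPH and is related in sequence to ARI1, read 12544, 11486 and 11342 against 7405, 7468 and 6267. It was 0.75 ± 0.11 higher (adjusted p = 0.000902). Here the strains at 25 mM did not differ by a value that passed (0.16 ± 0.12, adjusted p = 0.517), and the step from 25 to 36 mM did (0.58 ± 0.12, adjusted p = 0.0184). OYE3, an NADPH dehydrogenase encoded on chromosome XVI, was 0.70 ± 0.11 higher (adjusted p = 0.00137), with 11350.0, 12625 and 12333 against 8049, 7462 and 6795. The median difference of all genes on that chromosome was 0.44, so much of this value is shared with its neighbours there.

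**Figure D2:**
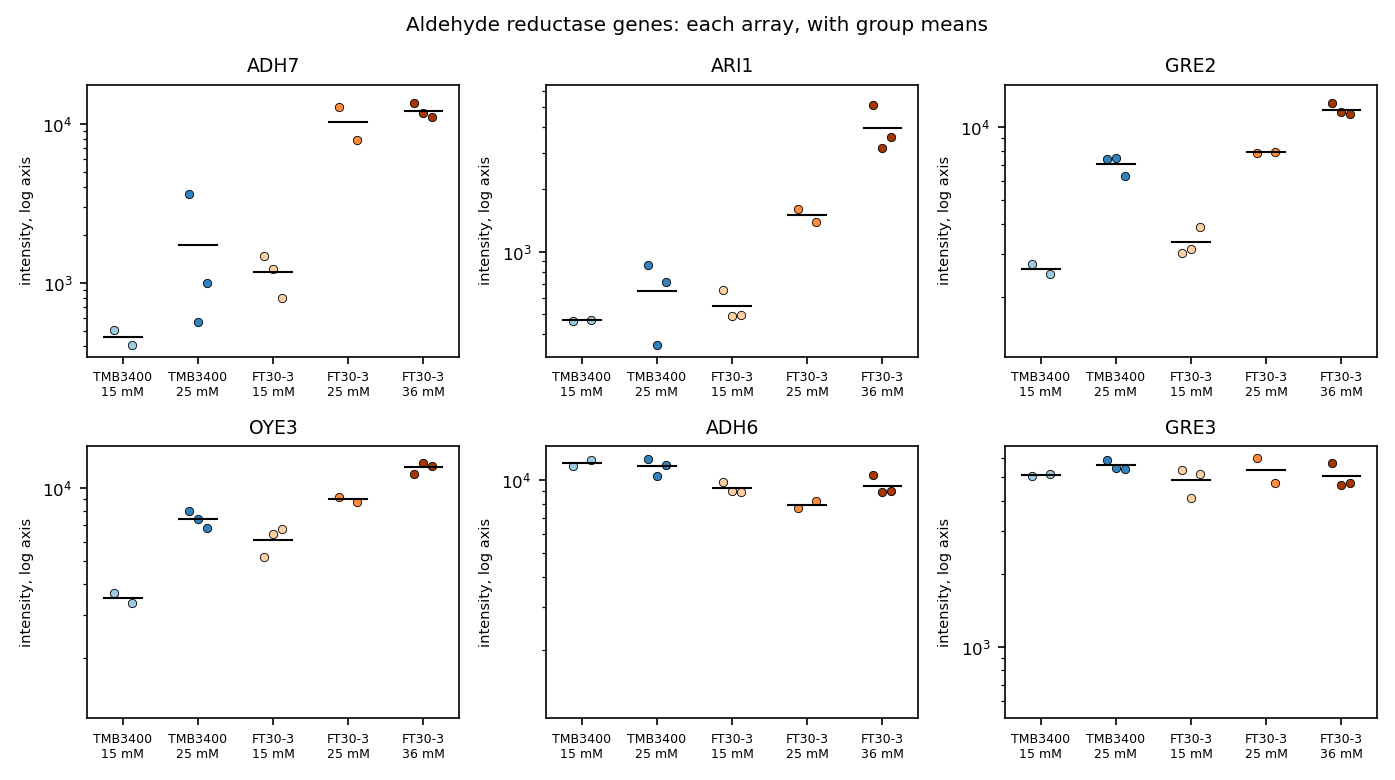
Intensity of 6 reductase genes on each of the 13 arrays, on a log axis, with bars at the group means. ADH7 is high in FT30-3 at both 25 and 36 mM, ARI1 is highest at 36 mM, GRE2 and OYE3 are higher at the higher doses in both strains, and ADH6 and GRE3 lie within a narrow range.

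ADH6, a close relative of ADH7 with the same cofactor, was not higher. It read 10468, 8976 and 9078 in FT30-3 and 12291, 10414 and 11535 in TMB3400, so that FT30-3 replicate 1 overlapped with TMB3400 replicate 2. The difference was -0.26 ± 0.09 and did not pass (adjusted p = 0.0739). Without FT30-3 replicate 1 it was -0.34 and passed (adjusted p = 0.0196), and over the 28 alternatives its adjusted p ran from 0.000516 to 1. GRE3, an NADPH-dependent aldose reductase, differed by -0.16 ± 0.13 (adjusted p = 0.458), and its groups overlapped. The 12 reductase genes that did not pass lay between -0.39 and 0.45.

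ADH2, the glucose-repressed alcohol dehydrogenase that oxidises ethanol, was lower by a wide margin. It read 243, 263 and 228 in FT30-3 and 502, 1468 and 799 in TMB3400 (-1.77 ± 0.34, adjusted p = 0.00402), and all FT30-3 values lay below all TMB3400 values. The rest of the reductases that passed are named here to complete the count, after their values were seen, and are not among the 115 above. YDR541C, a reductase of the same family as ARI1 and GRE2, was 0.54 ± 0.11 higher (adjusted p = 0.00547), the aldo-keto reductase YPR1 0.41 ± 0.10 higher (adjusted p = 0.013), and SFA1, which also acts on formaldehyde, 0.40 ± 0.10 higher (adjusted p = 0.0174). The butanediol dehydrogenase BDH1 (-0.33 ± 0.08, adjusted p = 0.0174) and the aldo-keto reductase YJR096W (-0.36 ± 0.11, adjusted p = 0.0368) were lower, the latter not so without FT30-3 replicate 1 (-0.26, adjusted p = 0.0663). Only ADH2 stayed lower without FT30-3 replicate 2, TMB3400 replicate 1 or TMB3400 replicate 3. Without TMB3400 replicate 3, 4 reductases were higher, so not all of YDR541C, YPR1 and SFA1 passed there. Of 5 aryl-alcohol dehydrogenase genes of the AAD family, 1 was called higher, AAD6, but it lay below the background on all 6 arrays and gives no fold.

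Among the aldehyde dehydrogenase and pentose phosphate genes that passed, more were lower than higher. The same holds for all genes outside chromosome XVI, of which 9.27% were lower and 5.99% higher. ALD6, ZWF1 and GND1, which belong to the routes that supply NADPH, did not pass. Of 7 aldehyde dehydrogenase genes outside chromosome XVI, 4 were lower and 1 higher, with a median of -0.38. The 4 fell to 1 without FT30-3 replicate 2 or in the fit of the 6 arrays alone. They fell to 2 without FT30-3 replicate 3 or without TMB3400 replicate 3. ALD3, a cytosolic aldehyde dehydrogenase induced by stress, read 1359.7, 1341 and 1872 in FT30-3 and 3686, 3579 and 5568 in TMB3400 and was lower by a margin that passed (-1.48 ± 0.30, adjusted p = 0.00559). ALD6, the main cytosolic acetaldehyde dehydrogenase and a source of NADPH, lies on chromosome XVI and differed by only 0.05 ± 0.07 (adjusted p = 0.685), where the median of that chromosome's genes was 0.44. ZWF1 and GND1 of the oxidative pentose phosphate pathway differed by 0.12 ± 0.11 and -0.01 ± 0.07 (adjusted p = 0.499 and 0.959). Of 13 genes of the pentose phosphate pathway outside chromosome XVI, 3 were lower and 0 higher by limma (5 and 0 at an unadjusted p under 0.05; median -0.14), among them SOL4, a 6-phosphogluconolactonase homologue (-0.92 ± 0.21, adjusted p = 0.0104), and RKI1, the ribose-5-phosphate isomerase (-0.69 ± 0.15, adjusted p = 0.00852). XKS1, the xylulokinase used in xylose metabolism, differed by -0.32 ± 0.10 and did not pass (adjusted p = 0.0576, and 0.012 with -0.41 without FT30-3 replicate 1; 0.000219 to 1 over the 28 alternatives).

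Iron uptake by siderophores was the list with the highest median. Siderophores are small iron chelators, and yeast takes up their iron complexes through transporters that the regulators Aft1 and Aft2 induce when iron is short. Of 7 genes for siderophore transport and the FIT cell wall mannoproteins that retain siderophores, 5 were higher and 0 lower (6 and 0 at an unadjusted p under 0.05), with a median of 1.55, and the count was 5 when any 1 of the 6 arrays was left out. ARN2 read 2832, 2732 and 2796 in FT30-3 and 627, 783 and 532 in TMB3400 and was 2.12 ± 0.16 higher (adjusted p = 1.18e-05). ARN1 (1.63 ± 0.20, adjusted p = 0.000351), the enterobactin transporter ENB1 (1.67 ± 0.20, adjusted p = 0.000265) and SIT1 (1.55 ± 0.26, adjusted p = 0.00213) were higher too. None of these 4 transporters overlapped between the groups. At 25 mM the strain difference did not pass for any of them: it was 0.37, 0.07, 0.01 and 0.42 for ARN2, ARN1, ENB1 and SIT1 (adjusted p = 0.281, 0.909, 0.99 and 0.489), and FT30-3 at 36 mM exceeded FT30-3 at 25 mM by 1.75, 1.56, 1.66 and 1.13 (adjusted p = 0.000196, 0.0026, 0.0017 and 0.0425). FIT1 had the other pattern, with 0.89 ± 0.15 between the strains at 25 mM and 0.14 ± 0.15 between the doses, and 1.03 ± 0.13 in all (adjusted p = 0.000376). The other members, FIT2 and FIT3, are named after their values were seen and did not pass: FIT2 differed by 0.22 ± 0.15 and FIT3 by 0.28 ± 0.11 (adjusted p = 0.368 and 0.105).

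Most iron sparing genes that passed were higher as well. Of 13 genes for iron sparing and iron regulation outside chromosome XVI, 5 were higher and 1 lower (median 0.27), and 3 were higher without TMB3400 replicate 3. TIS11, also called CTH2, an RNA-binding protein that degrades messages of iron-using enzymes when iron is short, read 4334, 2436 and 2553 in FT30-3 and 514, 766 and 429 in TMB3400. It was 2.44 ± 0.27 higher (adjusted p = 0.00019; 2.17 without replicate 1). SMF3, which exports iron from the vacuole, was 0.71 ± 0.12 higher (adjusted p = 0.00183). LSO1, a small protein that responds to iron shortage, read 79.9, 71.6 and 135 in FT30-3 and lay below the background on all 3 TMB3400 arrays, so it was at least 2.56-fold higher. AFT2 itself, on chromosome XVI, where the median was 0.44, was 0.73 ± 0.15 higher (adjusted p = 0.00713), except in the fit of the 6 arrays alone.

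The reductive branch of iron uptake, in which ferric iron is reduced at the surface and taken up by the Fet3-Ftr1 complex, was mixed. Of 14 genes, 5 were higher and 2 lower (median 0.26), and the higher ones numbered 1 without TMB3400 replicate 3, 2 without FT30-3 replicate 2 and 3 without TMB3400 replicate 2. In the fit of the 6 arrays alone 1 was higher and 1 lower. The metalloreductase gene FRE3 was 0.65 ± 0.14 higher (adjusted p = 0.0083). FTR1, the high-affinity iron permease, was lower, with 3875, 4274 and 3922 in FT30-3 against 5024, 6087 and 5905 in TMB3400 (-0.49 ± 0.11, adjusted p = 0.00917). Of 12 low-affinity and other metal transporters outside chromosome XVI, 2 were lower and 0 higher by limma, a share near the 15.3% of all genes there. At an unadjusted p under 0.05, 3 were lower and 2 higher. Without FT30-3 replicate 1, 2 were lower and 3 higher by limma. The lowest gene of the whole comparison was among these transporters. FET4, the low-affinity transporter of ferrous iron and other metals, read 45, 111 and 50.8 in FT30-3 at 36 mM and 1221, 1062 and 1479 in TMB3400 at 25 mM. All FT30-3 values were over the background of their arrays, and the lowest TMB3400 value was several times the highest FT30-3 value. The difference was -4.27 ± 0.31 (adjusted p = 9.83e-06). It was already present at 25 mM (-4.84 ± 0.34), and the FT30-3 groups at 36 and 25 mM differed by 0.57 ± 0.34, which did not pass (adjusted p = 0.364). The other lower member, the phosphate transporter PHO84, was -1.55 ± 0.37 (adjusted p = 0.0142), and did not pass without TMB3400 replicate 1.

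Defence against peroxides split by gene. Of 39 genes for peroxide, thioredoxin and glutathione defence outside chromosome XVI, 6 were higher and 5 lower (median -0.08), against 5.99% and 9.27% of all genes there. The 5 fell to 1 without FT30-3 replicate 2 or TMB3400 replicate 3. GPX2, a glutathione peroxidase, read 3012, 4835 and 3883 in FT30-3 and 1675, 1344 and 1534 in TMB3400 and was 1.34 ± 0.20 higher (adjusted p = 0.000906). SRX1, the sulfiredoxin that repairs oxidised peroxiredoxins, was 0.99 ± 0.18 higher (adjusted p = 0.00361). Neither gene overlapped between the groups. CTT1, the cytosolic catalase, went the other way, with 3844, 4060.1 and 4830.0 against 7729.6, 7974 and 9821 (-1.002 ± 0.16, adjusted p = 0.00169). YAP1, the regulator that activates many of these genes in oxidative stress, differed by -0.02 ± 0.13 (adjusted p = 0.929), while its activity is set at the protein level, which arrays do not read.

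All multidrug efflux genes that passed outside chromosome XVI were higher. Of 25 transporters and regulators, 8 were higher and 0 lower (median 0.14), against 5.99% and 9.27% of all genes there. At an unadjusted p under 0.05 the counts were also 8 and 0. When any 1 of the 6 arrays was left out 6 to 8 were higher, and 4 in the fit of the 6 arrays alone. FLR1, a plasma membrane exporter of the major facilitator family that is also counted among the defence genes, read 1526, 1626 and 1440.0 in FT30-3 and 933, 712 and 639 in TMB3400 (1.02 ± 0.15, adjusted p = 0.00104). The polyamine exporters TPO4 (0.88 ± 0.17, adjusted p = 0.00487) and TPO2 (0.76 ± 0.10, adjusted p = 0.000573) and RSB1, which moves sphingoid bases out of the cell (0.75 ± 0.13, adjusted p = 0.00215), were higher as well. PDR5, the main drug exporter of the ABC family, differed by 0.25 ± 0.08 (adjusted p = 0.0407) and passed in 14 of the 28 alternatives only, with adjusted p of 0.000289 to 1 (0.0639 with the replicate number as a block). The exception was PDR12 on chromosome XVI, an exporter of weak organic acids, which was lower where most genes of that chromosome were higher. It read 1972, 2969.5 and 2622 in FT30-3 and 5066, 6299 and 5496 in TMB3400 (-1.17 ± 0.15, adjusted p = 0.000405).

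All genes that passed outside chromosome XVI were lower in the lists for gluconeogenesis and glyoxylate cycle, lactate and acetate use, and peroxisomal beta-oxidation. The isomaltase gene IMA5, which is outside these lists and is given below, was higher. The glyoxylate cycle and gluconeogenesis let yeast grow on acetate, ethanol and lactate, and glucose represses them. Of 16 such genes outside chromosome XVI, 9 were lower and 0 higher by limma (11 and 0 at an unadjusted p under 0.05), with a median of -0.78, and 9 or 10 were lower when any 1 of the 6 arrays was left out. MLS1, malate synthase of the glyoxylate cycle, read 431, 789 and 579 in FT30-3 and 2390.4, 4055 and 2561 in TMB3400 (-2.32 ± 0.27, adjusted p = 0.000233). MDH2, the cytosolic malate dehydrogenase, was -0.98 ± 0.09 (adjusted p = 5.42e-05). SFC1, the mitochondrial succinate-fumarate carrier (-1.36 ± 0.19), the acetyl-CoA synthetase ACS1 (-0.79 ± 0.13) and CAT8, the activator of gluconeogenic genes (-0.78 ± 0.13), were lower with adjusted p of 0.000707, 0.0017 and 0.00169. For MLS1, MDH2 and CAT8 the strains at 25 mM differed by -0.52, -0.22 and -0.23, none of which passed (adjusted p = 0.389, 0.248 and 0.425), and the step from 25 to 36 mM in FT30-3 by -1.80, -0.76 and -0.55, which did (adjusted p = 0.006, 0.00143 and 0.0421).

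Genes for uptake and use of lactate and acetate had the same direction. Of 14 genes, 8 were lower and 0 higher (9 and 0 at an unadjusted p under 0.05; median -0.53), and 8 or 9 with any 1 of the 6 arrays left out. ATO2, a putative ammonium and acetate transporter, read 1777, 1950.0 and 2346 in FT30-3 and 7667, 8763 and 7331 in TMB3400 and was -1.97 ± 0.12 (adjusted p = 2.87e-06; -1.88 without replicate 1). Its relatives ATO3 (-1.42 ± 0.13, adjusted p = 7.25e-05) and ADY2 (-1.34 ± 0.16, adjusted p = 0.000233) and the lactate dehydrogenase CYB2 (-1.26 ± 0.17, adjusted p = 0.000541) were lower without overlap between the groups. Of 14 genes of peroxisomal beta-oxidation outside chromosome XVI, 6 were lower and 0 higher (8 and 1 at an unadjusted p under 0.05; median -0.43). With any 1 array left out 4 to 6 were lower, and 3 in the fit of the 6 arrays alone. Among the 6 were the thiolase POT1 (-1.31 ± 0.20, adjusted p = 0.00126) and the acyl-CoA oxidase POX1 (-0.56 ± 0.11, adjusted p = 0.00462).

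**Figure D3:**
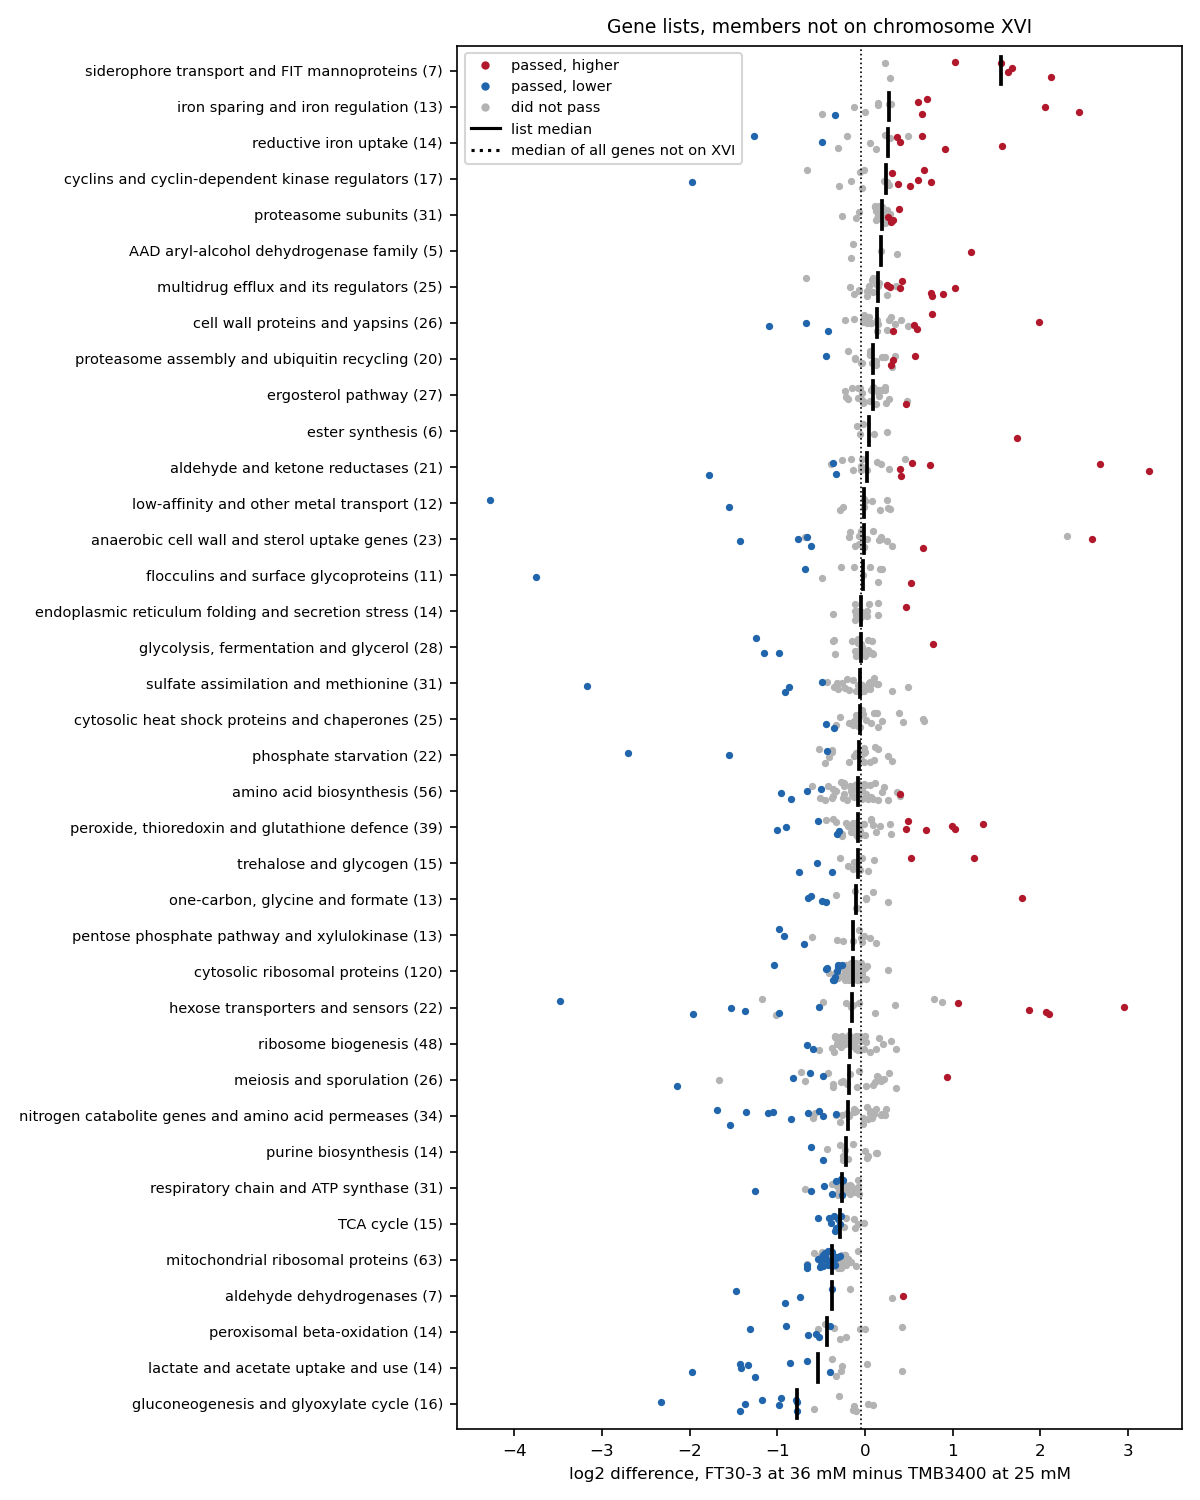
Members of the 38 gene lists that do not lie on chromosome XVI, with the number of members in brackets. The x axis is the log2 difference of FT30-3 at 36 mM minus TMB3400 at 25 mM, red and blue dots passed, grey dots did not, and black bars are list medians. Siderophore transport is at the top with a median of 1.55 and gluconeogenesis at the bottom with -0.78.

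Of the mitochondrial gene lists, all members that passed were lower, in numbers that depended on the analysis. Of all 5025 genes outside chromosome XVI, 2898 lay below 0 and 9.27% were lower. On the values as deposited, 2355 of these 5025 genes lay below 0. Of 63 genes of mitochondrial ribosomal proteins outside chromosome XVI, all 63 had values below 0 and 26 were lower, with a median of -0.38. RSM19 (-0.66 ± 0.12, adjusted p = 0.00292) and MRPS5 (-0.54 ± 0.09, adjusted p = 0.00199) are examples from the small subunit. The count was 8 without FT30-3 replicate 2, without TMB3400 replicate 1 or without TMB3400 replicate 3, and 17 without FT30-3 replicate 3. It was 12 on the values as deposited and 6 in a fit of the 6 arrays alone. Of 15 genes of the tricarboxylic acid cycle outside chromosome XVI, 9 were lower and 0 higher (11 and 0 at an unadjusted p under 0.05; median -0.29; 4 without FT30-3 replicate 2 and 2 in the fit of the 6 arrays), including the isocitrate dehydrogenase subunit IDH1 (-0.38 ± 0.07, adjusted p = 0.00297) and LSC2, a subunit of succinyl-CoA ligase (-0.54 ± 0.11, adjusted p = 0.00544). In the respiratory chain and ATP synthase, all 31 genes outside chromosome XVI lay below 0 and 9 were lower (median -0.26). That count was 4 without FT30-3 replicate 2 or TMB3400 replicate 1, 3 without TMB3400 replicate 2 or 3, 5 with the replicate number as a block, and 2 in the fit of the 6 arrays. They include the external NADH dehydrogenases NDE2, the lowest of the list (-1.26 ± 0.22, adjusted p = 0.00263), and NDE1 (-0.47 ± 0.10, adjusted p = 0.00639), which pass electrons from cytosolic NADH to the chain. Of 120 genes of cytosolic ribosomal proteins outside chromosome XVI, 117 lay below 0 but 10 were lower (median -0.14), a share near the 9.27% of all genes there. The count was 2 to 13 with any 1 of the 6 arrays left out and 0 in the fit of the 6 arrays alone.

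Of 28 genes of glycolysis, fermentation and glycerol metabolism, 3 were lower and 1 higher, a share near the 15.3% of all genes outside chromosome XVI (median -0.05), and 5 were lower without FT30-3 replicate 1. The 3 belong to glycerol metabolism, which links the redox balance of NADH to the osmolyte glycerol. GPD2, a glycerol-3-phosphate dehydrogenase that reoxidises NADH when oxygen is short, read 681, 391 and 499 in FT30-3 and 1177, 1308 and 1149.5 in TMB3400 (-1.24 ± 0.18, adjusted p = 0.000742). GUT1, glycerol kinase (-1.15 ± 0.12, adjusted p = 0.000133), and GUT2, the mitochondrial glycerol-3-phosphate dehydrogenase (-0.98 ± 0.10, adjusted p = 0.000114), take glycerol back into metabolism and were also lower. For each of these 3 genes all FT30-3 values lay below all TMB3400 values. The higher gene was HXK2, the hexokinase that also takes part in glucose repression, with 7339, 4938 and 5006 against 3686, 2847 and 3424 (0.78 ± 0.17, adjusted p = 0.00957).

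Hexose transporters changed in both directions. Of 22 transporter and sensor genes, 5 were higher and 6 lower (median -0.15), and the 6 were 3 without TMB3400 replicate 1 or 3. HXT3, a low-affinity glucose transporter, read 4449, 4783 and 5253 in FT30-3 at 36 mM and 1211, 1121 and 1039 in TMB3400 at 25 mM (2.10 ± 0.09, adjusted p = 1.21e-07). In the remaining groups it read 5655 and 5723 in TMB3400 at 15 mM, 5550.1, 5789 and 5612 in FT30-3 at 15 mM and 4967 and 4444 in FT30-3 at 25 mM, so the TMB3400 cultures at 25 mM were the ones that stood low. HXT2, a transporter of higher affinity, was lower, with 964, 1136 and 808 against 4656, 2391 and 4654 (-1.96 ± 0.30, adjusted p = 0.00126). STD1, a regulator of the glucose-sensing pathway that controls HXT genes, was 2.06 ± 0.19 higher (adjusted p = 7.02e-05) and, like HXT3, lowest in TMB3400 at 25 mM, where it read 123, 68.4 and 92.6 against 381, 397 and 385 in FT30-3 at 36 mM. HXT9 was 2.95 ± 0.17 higher (adjusted p = 2.04e-06) and HXT15 was lower (-3.48 ± 0.51, adjusted p = 0.00087). Both HXT9 and HXT15 have near-identical copies, so their probe sets may share signal and the values are uncertain, and HXT15 lay below the background on 2 of the 3 FT30-3 arrays. IMA5, an isomaltase that splits alpha-glucosides, was 2.50 ± 0.28 higher (adjusted p = 0.000193).

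Several permeases for other nutrients were lower. Of 34 nitrogen catabolite genes and amino acid permeases outside chromosome XVI, 10 were lower and 0 higher by limma (13 and 0 at an unadjusted p under 0.05; median -0.19; 6 without TMB3400 replicate 3). The permeases for gamma-aminobutyrate, UGA4 (-1.11 ± 0.13, adjusted p = 0.000233), for proline, PUT4 (-1.54 ± 0.24, adjusted p = 0.00129), and for branched-chain and aromatic amino acids, TAT1 (-1.05 ± 0.11, adjusted p = 0.000159), were lower without overlap. DIP5, a permease for acidic amino acids on chromosome XVI, was -0.96 ± 0.10 (adjusted p = 0.00015). SUL1, the high-affinity sulfate permease, had one of the lowest values. It read 154, 500.1 and 498 in FT30-3 and 3126, 3103 and 2869 in TMB3400 (-3.16 ± 0.44, adjusted p = 0.000644; -2.60 without replicate 1, which read lowest). Of 31 genes for sulfate assimilation and methionine outside chromosome XVI, 4 were lower and 0 higher, a share near the 15.3% of all genes there. At an unadjusted p under 0.05, 7 were lower and 1 higher, and 2 to 6 were lower by limma with any 1 array left out. FUI1, the uridine permease, was -2.38 ± 0.28 (adjusted p = 0.000233). Of 22 phosphate starvation genes outside chromosome XVI, 3 were lower and 0 higher (5 and 1 at an unadjusted p under 0.05), again near the 15.3%, and 1 was lower without TMB3400 replicate 1. The lowest of them, PHM7, a membrane protein gene regulated by phosphate, read 186, 217 and 317 against 893, 1739 and 2273 (-2.70 ± 0.39, adjusted p = 0.00087).

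Proteasome and chaperone genes differed by small amounts. For comparison with the counts below, 5.99% of all genes outside chromosome XVI were higher and 9.27% lower. RPN4, the transcription factor that activates proteasome genes, was 0.57 ± 0.09 higher (adjusted p = 0.00124), with 9774, 9205 and 9083 in FT30-3 and 6911, 5695 and 6353 in TMB3400, and did not overlap. Of 31 proteasome subunit genes outside chromosome XVI, 4 were higher and 0 lower by limma (10 and 1 at an unadjusted p under 0.05; median 0.19, with 3 below 0), but 0 to 3 were higher when any 1 of the 6 arrays was left out and 0 in the fit of the 6 arrays alone. On chromosome XVI, the lid subunit RPN7 was 0.64 ± 0.08 higher (adjusted p = 0.000233), above that chromosome's median. Of 20 genes for proteasome assembly and ubiquitin recycling, 3 were higher and 1 lower, RPN4 among the former, and 1 or 2 were higher with any 1 array left out. Of 25 cytosolic heat shock and chaperone genes outside chromosome XVI, 2 were lower and 0 higher (2 and 1 at an unadjusted p under 0.05). This turned to 0 lower and 2 higher without FT30-3 replicate 1, neither passed on the values as deposited, and none passed in the fit of the 6 arrays alone or without FT30-3 replicate 2, TMB3400 replicate 1 or TMB3400 replicate 2, so the list has no settled direction. SSA2, a constitutive Hsp70, read 6505, 4038 and 4618 in FT30-3 and 3345, 3021 and 3001 in TMB3400 and did not pass (0.67 ± 0.26, adjusted p = 0.104; 0.0243 in the 6 arrays with the replicate number as a block, and 0.0243 to 1 over the alternatives), although its steps did: the strains at 25 mM differed by -1.31 ± 0.29 (adjusted p = 0.0212) and the FT30-3 groups at 36 and 25 mM by 1.98 ± 0.29 (adjusted p = 0.00256). Of 14 genes for folding in the endoplasmic reticulum, the list on which FT30-3 replicate 1 stood apart most, 1 was higher and 0 lower (1 and 0 at an unadjusted p under 0.05), and without that array 2 and 0.

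Cell surface genes held one of the widest differences. FLO11, the flocculin behind adhesion and filament formation, read 158, 143 and 151 in FT30-3 at 36 mM and 1192, 1705 and 4224 in TMB3400 at 25 mM (-3.76 ± 0.51, adjusted p = 0.000573). The FT30-3 values were close to each other and all lay below the TMB3400 values. At 25 mM the strains differed by nearly the same amount (-3.80 ± 0.57). Of 11 flocculin and surface glycoprotein genes, 2 were lower and 1 higher, against 9.27% and 5.99% of all genes outside chromosome XVI. With any 1 array left out, 1 or 2 were lower and 0 or 1 higher. Of 26 cell wall proteins and yapsins outside chromosome XVI, 5 were higher and 3 lower (median 0.14), against 5.99% and 9.27% of all genes there. Without FT30-3 replicate 1, 10 were higher. YPS3, an aspartyl protease anchored at the surface, read 584, 824 and 786 against 193, 193 and 162 (1.98 ± 0.22, adjusted p = 0.000202). SLT2, the kinase of the cell wall integrity pathway (0.56 ± 0.11, adjusted p = 0.00409), and CRH1, which links chitin to glucan (0.77 ± 0.13, adjusted p = 0.00178), were higher. SPI1, a wall protein induced by weak acids and in stationary phase, was -0.67 ± 0.10 (adjusted p = 0.00126).

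Among 17 cyclins and cyclin-dependent kinase regulators outside chromosome XVI, 6 were higher and 1 lower (median 0.23). The 6 became 3 or 4 when any 1 of the 6 arrays was left out, with 3 without FT30-3 replicate 1, FT30-3 replicate 2 or TMB3400 replicate 3. In the fit of the 6 arrays alone 1 was higher. CDC20, an activator of the anaphase-promoting complex, was 0.67 ± 0.11 higher (adjusted p = 0.00179). The lower gene was CLB6, a cyclin of S phase, with 102, 76.9 and 65.2 in FT30-3 and 297, 329 and 323 in TMB3400 (-1.97 ± 0.22, adjusted p = 0.000206). FT30-3 at 25 mM read 306 and 285, in the range of the parent at that dose, and both strains at 15 mM read lower, with 77.8, 147 and 132 in FT30-3 and 113 and 146 in TMB3400. The mitotic cyclin CLB2 and the G1 cyclin CLN2, both on chromosome XVI, were 1.06 ± 0.13 and 0.82 ± 0.16 higher (adjusted p = 0.000372 and 0.00567), against that chromosome's median of 0.44. Of 26 meiosis and sporulation genes outside chromosome XVI, 4 were lower and 1 higher, a share near the 15.3% of all genes there. Between 2 and 5 of them were lower with any 1 array left out. The lowest was SPO1, a meiotic phospholipase homologue, with 96.4, 147 and 176 against 509, 582 and 742 (-2.14 ± 0.23, adjusted p = 0.000164). In ester synthesis, where 1 of 6 genes outside chromosome XVI was higher, the alcohol acetyltransferase ATF2 was 1.74 ± 0.30 higher (adjusted p = 0.00229). EEB1 on chromosome XVI, which makes ethyl esters, was 1.03 ± 0.16 higher (adjusted p = 0.00142), against the same median of 0.44.

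Of 13 genes of one-carbon, glycine and formate metabolism, 1 was higher and 4 lower: the formate dehydrogenase FDH1 (1.79 ± 0.30, adjusted p = 0.002), whose near-identical copy makes the value uncertain, against the glycine cleavage genes GCV2 (-0.62 ± 0.14, adjusted p = 0.0111) and GCV3 (-0.44 ± 0.08, adjusted p = 0.00265) among the 4. Of 56 amino acid biosynthesis genes outside chromosome XVI, 4 were lower and 1 higher, and 9 were lower without FT30-3 replicate 1. HIS3 of histidine synthesis read 2802, 2656 and 2701 against 5755, 5073 and 5080.3 (-0.96 ± 0.09, adjusted p = 8.74e-05), and GCN4, the activator of these genes, differed by -0.04 ± 0.07 (adjusted p = 0.723), with its activity set largely by translation. Of 14 purine genes 2 were lower, but 6 without FT30-3 replicate 1 and 0 without FT30-3 replicate 2 or 3, without TMB3400 replicate 2 or 3, or in the fit of the 6 arrays alone. Of 48 ribosome biogenesis genes outside chromosome XVI 2 were lower, and 9 without it. Of 15 trehalose and glycogen genes outside chromosome XVI, 2 were higher and 3 lower (5 lower without FT30-3 replicate 1), with the phosphoglucomutase PGM1 (1.24 ± 0.15, adjusted p = 0.000302) and the glycogenins GLG1 (0.53 ± 0.12, adjusted p = 0.00954) and GLG2 (-0.75 ± 0.16, adjusted p = 0.00846) in opposite directions. Of 27 ergosterol genes outside chromosome XVI, 1 was higher. The amino acid, ribosome biogenesis and ergosterol lists thus passed at shares below the 15.3% of all genes there. Of 23 anaerobic cell wall and sterol uptake genes outside chromosome XVI, 2 were higher and 4 lower, 2 lower without TMB3400 replicate 1 or 3, with the sterol uptake regulator SUT1 (-1.42 ± 0.17, adjusted p = 0.000298) and the hypoxic translation factor ANB1 (-0.66 ± 0.12, adjusted p = 0.00251) among the lower ones.

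Chromosome XVI stood apart from all other chromosomes. Of its 424 genes, 244 passed (57.5%), of which 232 (54.7%) were higher and 12 (2.83%) lower, and the groups did not overlap for 289 (68.2%). Their median difference exceeded that of the other chromosomes by 0.49 on the log2 scale, a ratio of 1.40, and 88.2% of the genes lay above 0. The other chromosomes lay between -0.06 and 0.01. An index per array, the median deviation of chromosome XVI genes from their mean over the 13 arrays minus the same for the other genes, was 0.15 to 0.21 in FT30-3 at 36 mM and -0.29 to -0.27 in TMB3400 at 25 mM. It separated the strains at 15 and 25 mM as well. Without FT30-3 replicate 1 the shift was 0.45, and 241 genes (56.8%) were higher and 10 (2.36%) lower. The chromosome was singled out with these values known, so the shift is a description.

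**Figure D4:**
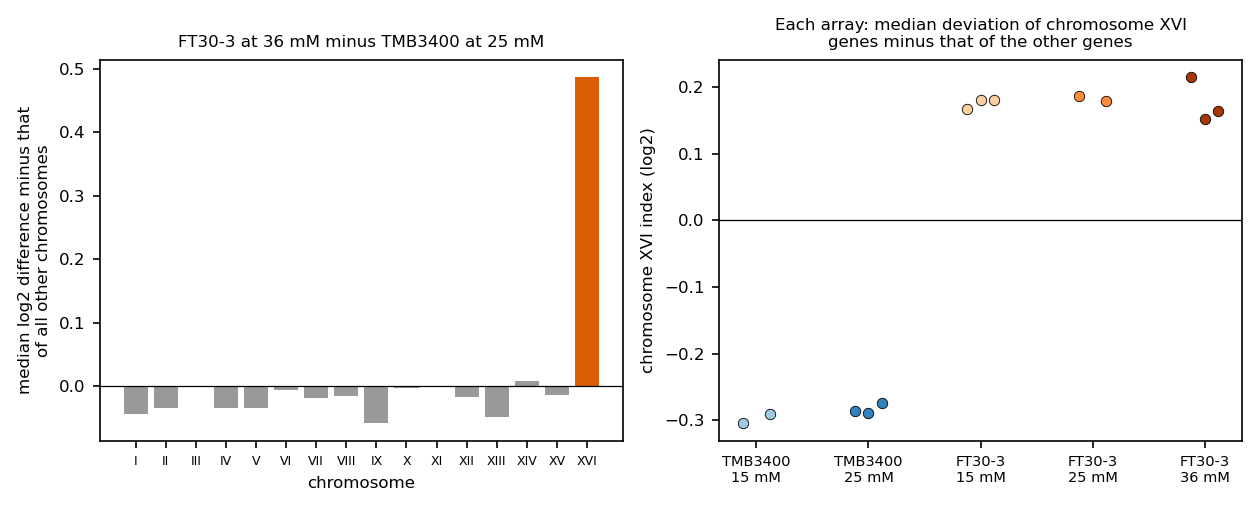
Left, the median log2 difference of each chromosome's genes minus that of all other chromosomes, for FT30-3 at 36 mM minus TMB3400 at 25 mM. Right, the chromosome XVI index of each of the 13 arrays by group. Chromosome XVI stands at 0.49, and the 8 FT30-3 arrays lie above 0 and the 5 TMB3400 arrays below.

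Beyond the shift, the genes of chromosome XVI with the widest differences were of several kinds. YPL038W-A, a small open reading frame with no known function, read 1698, 1649 and 1694 in FT30-3 at 36 mM and 117, 109.8 and 107 in TMB3400 at 25 mM (3.91 ± 0.08, adjusted p = 1.28e-10). TMB3400 at 15 mM read 1364 and 1519.7, so the parent at 25 mM stood low. REC8, a meiotic cohesin subunit, had the same pattern, with 288, 321 and 257 in FT30-3 at 36 mM, 107, 106 and 118 in TMB3400 at 25 mM and 321 and 346 in TMB3400 at 15 mM (1.37 ± 0.09, adjusted p = 6.47e-06). The pheromone-regulated gene PRM3 (2.38 ± 0.30, adjusted p = 0.000334) and the alpha-factor precursor gene MF(ALPHA)1 (1.96 ± 0.27, adjusted p = 0.000608) were higher. AQY1, an aquaporin of spores, was the lowest gene of the chromosome, with 129, 194 and 323 against 946, 1104 and 2368 (-2.74 ± 0.42, adjusted p = 0.00121). LGE1, needed for ubiquitination of histone H2B, read 434, 324 and 321 in FT30-3 at 36 mM and 1003, 1001 and 1070.0 in TMB3400 at 25 mM (-1.52 ± 0.12, adjusted p = 1.41e-05). Its level in FT30-3 at 25 mM was 1633 and 1435, so the difference between 36 and 25 mM within FT30-3 was -2.10 ± 0.13 (adjusted p = 5.92e-06).

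Some of the widest differences outside chromosome XVI also set 1 group of the study apart from the other 4. YBR090C, an open reading frame of unknown function beside the chromatin protein gene NHP6B, read 1813, 2242 and 2143 in FT30-3 at 36 mM and 61.1, 87 and 77.2 in TMB3400 at 25 mM. In FT30-3 it read 14.4, 28.3 and 18.2 at 15 mM and 21 and 36.7 at 25 mM, at or near the background. The 3 cultures at 36 mM were thus the only group with a signal far over the background. The difference was 4.77 ± 0.29 (adjusted p = 2.24e-06), the highest of all genes. NHP6B itself did not pass (-0.18 ± 0.10, adjusted p = 0.245). YIR018C-A, a small open reading frame beside FLO11, read 1411, 1495 and 1538 against 106, 93.3 and 82.8 (3.97 ± 0.10, adjusted p = 6.78e-10), and 491 and 467 in TMB3400 at 15 mM. The small open reading frames YNL067W-B and YJL136W-A lay below the background in TMB3400 at 25 mM. At 36 mM in FT30-3 YNL067W-B read 138, 138 and 133 and YJL136W-A 111, 120.0 and 81.1, so that they were at least 3.79-fold and at least 2.86-fold higher. Both were also high in FT30-3 at 25 mM, where YNL067W-B read 231 and 169 and YJL136W-A 259 and 215, and below the background in FT30-3 at 15 mM. PAU7, of the seripauperin family with many similar copies, was 2.59 ± 0.22 higher (adjusted p = 3.34e-05), and YMR317W, of unknown function, 2.46 ± 0.39 higher (adjusted p = 0.00143), with 2 of its 3 TMB3400 values below the background. On the lower side were the protein kinase gene RCK1 (-2.22 ± 0.47, adjusted p = 0.00748), YGR153W (-2.24 ± 0.26, adjusted p = 0.000242) and the membrane protein gene FMP45 (-2.02 ± 0.46, adjusted p = 0.0109), which did not pass in the fit of the 6 arrays alone.

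**Figure D5:**
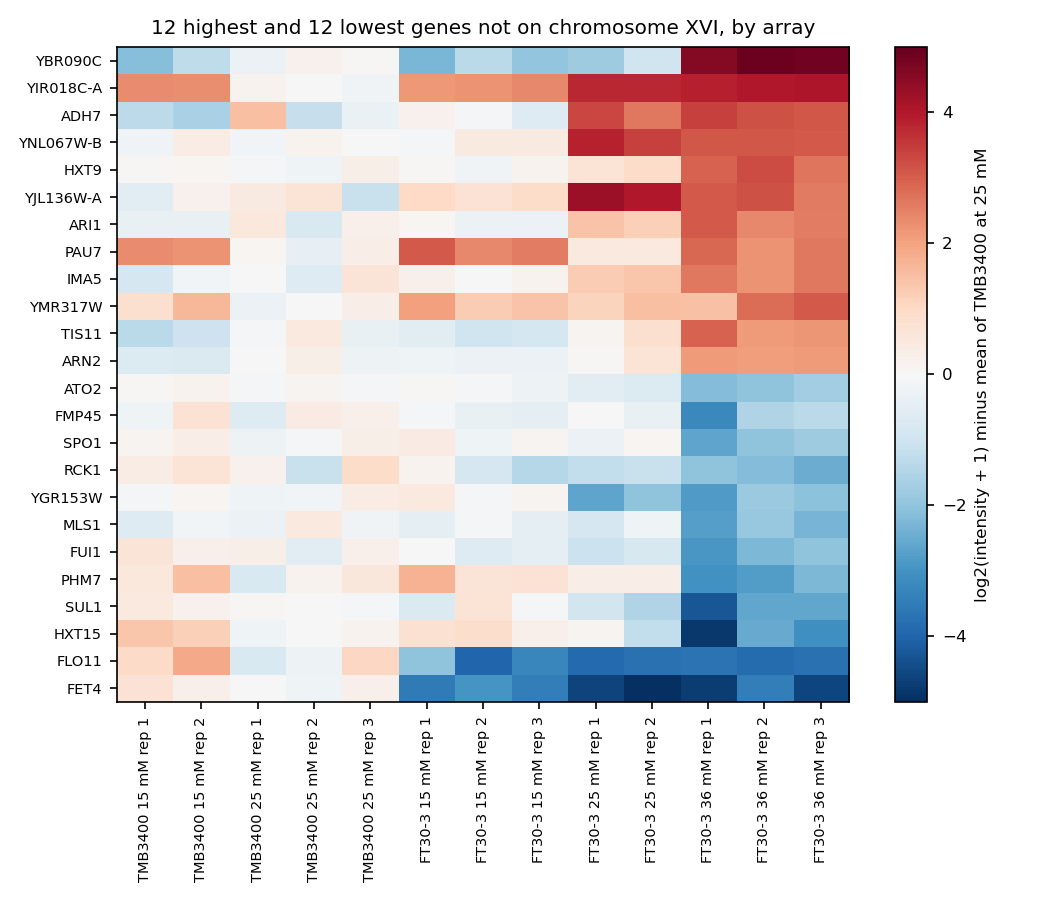
The 12 highest and 12 lowest genes outside chromosome XVI by array, as log2(intensity + 1) minus the mean of TMB3400 at 25 mM (colour, limited to 5 in both directions). FET4 and FLO11 are low in all 8 FT30-3 arrays, YBR090C is high in the 3 arrays at 36 mM alone, and ADH7 is high in FT30-3 at 25 and 36 mM.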

How the data were processed

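Total RNA of 13 chemostat cultures was labelled with biotin and hybridised to 1-colour arrays, per the labels' protocols. The authors deposited linear intensities for every probe set. The submitters' processing notes name R 2.7.2. How probes were summarised, corrected for background and normalized is unstated in the sources used here. Of 10928 probe sets, the platform annotation gives 1 S. cerevisiae gene for 5498 and 1 S. pombe gene for 1746. Gene names come from RefSeq's R64 annotation, and no coordinates or sequences were used. The brightest probe set stood for a gene with several (47 genes).

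Each array was shifted so that its median log2(intensity + 1) over S. cerevisiae probe sets took a common value. Group means of all 13 arrays were fitted with limma's lmFit and eBayes (limma 3.58.1, R 4.3.3), and p-values were adjusted by Benjamini and Hochberg's method over 5498 probe sets. Adding 1 understates changes of dim genes. Replicates are biological per the design text, and 3 arrays a group limit the precision. Deviations of same-numbered arrays of the groups compared correlated at 0.59, 0.33 and 0.36. Between replicates 2 and 3 of opposite groups they correlated at 0.19 and 0.27, and pairs of replicate 1 with another number were negative. Deviations were taken from each group's own mean and cancel within it, so the negative pairs are not separate evidence of pairing. The numbers may pair the cultures, which these values cannot settle. The main fit has no block and takes no account of a pairing, and a fit with the number as a block was run too. Tested on simulated data over 5498 probe sets, this comparison called 53.7% of genes changed 1.5-fold, 89.6% of those changed 2-fold and 100% at 4-fold, and 8 unchanged probe sets. The simulated noise was independent between arrays, with no array standing apart and no pairing. The rates may therefore not hold for the real arrays. The comparison, the 38 lists and the 214 genes eligible for naming (the 12 highest and 12 lowest outside chromosome XVI and 5 and 5 on it whose groups did not overlap, up to 5 members of each list by p, and 23 genes of interest) were chosen with earlier results of these data known. Not all are described. Figures were drawn with matplotlib 3.10.9.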

Additional observations from a re-analysis of the deposited data

Results flagged for a closer look

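Of 3470 probe sets to which the annotation gives no gene, and which no comparison above uses, 24 were higher and 40 lower in FT30-3 at 36 mM than in TMB3400 at 25 mM among those over the background on all 3 arrays of the brighter group. They stand out because signal over the background was read outside the named genes: 309 of the 3470 lay over it on all FT30-3 arrays and 342 on all TMB3400 arrays. The probe sets are unnamed here and their targets were not analysed.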

How the results depend on the processing

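The chromosome XVI shift and the named genes that passed kept their sign in all alternatives run. The balance of higher and lower genes outside chromosome XVI turned with the centring (301 and 466, against 395 and 317 as deposited), and the heat shock list turned without FT30-3 replicate 1 (0 higher and 2 lower, then 2 and 0). The fit of the 6 arrays alone gave 536 genes (173 higher and 202 lower outside chromosome XVI, 154 and 7 on it), and array weights, which gave FT30-3 replicate 1 a weight of 0.11, gave 2613 (882 and 1403, with 22 lower on chromosome XVI). A test against a 1.5-fold difference gave 84 (39 and 29, and 14 and 2). Leaving out chromosome XVI gave 666 in all. With 1 array left out, the total was 619 to 1384, lowest without TMB3400 at 25 mM replicate 3. Higher and lower genes numbered 192 to 407 and 252 to 726 outside chromosome XVI and 168 to 241 and 7 to 11 on it, S. pombe probe sets 89 to 123, and the shift of chromosome XVI 0.45 to 0.50. The other alternatives (quantile normalization, pseudocounts of 16 and 50, a filter on dim probe sets, intensity trends, probe set means) moved none of these counts over all genes by over 1.5 times. Of the lists, quantile normalization took, among others, the lower genes of the tricarboxylic acid cycle from 9 to 4, of the respiratory chain from 9 to 3 and of the cytosolic ribosome from 10 to 3, and the higher genes of the proteasome from 4 to 7 and of ergosterol synthesis from 1 to 4. With the replicate number as a block, 969 genes passed, 276 higher and 453 lower outside chromosome XVI. It ended the call of PDR5, took the lower genes of the respiratory chain from 9 to 5 and those of the purine and heat shock lists from 2 to 1, and ended 1 call each among aldehyde dehydrogenases and flocculins and 2 in proteasome assembly. Other lists moved by at most 1.5 times, such as multidrug efflux from 8 to 6 higher and amino acid synthesis from 4 to 6 lower. The block with the 6 arrays alone gave 905 genes, SSA2 an adjusted p of 0.0243, and, among lists that moved by over 1.5 times, 3 lower genes in the tricarboxylic acid cycle, 4 in the respiratory chain, and 0 higher in the proteasome and endoplasmic reticulum lists. Of the genes described by name, PDR5 and SSA2 alone changed their call under a block among those run through all alternatives. Genes near the background and differences under 1.5-fold are the least certain, and strain and dose cannot be told apart.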

Other observations

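Several of the genes with the widest differences lie next to each other in the RefSeq order. Of 41 measured neighbours of the 12 highest and 12 lowest genes outside chromosome XVI, 16 passed, 39%, against 15.3% of all genes there. A pair of such genes counts from both sides: FLO11 and YIR018C-A, and ARI1 and RCK1, had passed by selection and raise the 39%. Of the 16, 6 went opposite to the gene beside them and the rest went the same way. Pairs with opposite directions were FLO11 and YIR018C-A (-3.76 and 3.97), RCK1 and ARI1 (-2.22 and 2.68), SUL1 and the cadmium exporter gene PCA1 (-3.16 and 1.45), and GLG2 and YJL136W-A (-0.75, against at least 2.86-fold higher). HXT9, YJL218W, IMA5 and HXT8 lie close together on chromosome X and were higher, by 2.95, 0.73, 2.50 and 1.87. REE1, the other measured neighbour of IMA5, did not pass (0.20 ± 0.09, adjusted p = 0.18 by limma). YMR317W, ADH6 and FET4 are neighbours on chromosome XIII with 2.46, -0.26 and -4.27, the first resting on 1 TMB3400 array over the background. These genes were picked by their differences, and no cause was tested.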
